A study of Mus musculus with 6 samples.

Results

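Polycystins, Piezo channels and mechanosensitive TRP channels are membrane proteins through which cells of the urinary tract sense flow, stretch and pressure. The RNA of 10 of their genes was followed here across newborn mouse kidney and ureter: the polycystin and fibrocystin genes Pkd1, Pkd2, Pkd2l2 and Pkhd1, the Piezo genes Piezo1 and Piezo2, and the TRP channel genes Trpv4, Trpm7, Trpc1 and Trpc6. The genes were taken by symbol from the deposited table of 24532 genes, and all 10 were found in it. Trpc1 stood out by size, since its RNA was far lower in ureter than in kidney. Trpm7, Pkd2 and Piezo2 were lower in ureter as well, where 23.7% of all genes tested were lower at an adjusted p under 0.05. The test result of Piezo2 rested on the WT ureter, and that of Pkd2 did not hold in every alternative. The levels of Trpv4, Piezo1 and Pkhd1 per length overlapped between the tissues. No gene of the 10 passed the test between Ahnak KO and WT kidneys.

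Polycystin-1, the product of Pkd1, is a large receptor-like protein, and polycystin-2, the product of Pkd2, is a cation channel of the TRP superfamily. They form a complex on the primary cilium of kidney tubule cells, and loss of either gene causes autosomal dominant polycystic kidney disease. Fibrocystin, the product of Pkhd1, is a ciliary membrane protein of tubule and duct epithelia, and its loss causes the recessive form of the disease. Piezo1 and Piezo2 are ion channels that are opened directly by membrane tension, and in the bladder they serve the sensing of filling by urothelial cells and sensory neurons. Trpv4 is a calcium-permeable channel of urothelium and collecting duct that responds to stretch and osmolarity, Trpm7 joins a magnesium- and calcium-permeable channel to a kinase, Trpc1 is a subunit of calcium entry channels, and Trpc6 is a channel of podocytes and smooth muscle in which gain-of-function mutations cause glomerular disease.

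Bulk RNA was sequenced from whole kidney and whole ureter of mice at postnatal day (PN) 1. The kidney was represented by 2 Ahnak KO and 2 WT libraries and the ureter by 1 Ahnak KO and 1 WT library. The Ahnak KO mice carry a disruption of an exon of Ahnak, which encodes a very large scaffold protein. According to the methods, RNA came from between 2 and 4 kidneys or ureters, without the number for each library, and 2 biological replicates were sequenced, without the tissue being named. The labels do not say whether replicates came from separate mice, so p-values measure the spread between these libraries, which may be technical. The WT libraries are the controls. The ureter libraries carry kidney in their titles and ureter as their source, and they were grouped by the source.

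The estimated counts summed to 55744703 to 66095616 in the kidney libraries, to 36410246 in the Ahnak KO ureter and to 54985927 in the WT ureter. A limit of 3 counts therefore stood for 0.0454 to 0.0824 CPM (the count scaled to the library total), and such limits cover counting error only. The markers went with the tissue labels. The summed level of 12 tubule and podocyte markers, in TPM (a level corrected for gene length and library size), was 1350 to 1490 in kidney and 0.962 and 1.46 in the Ahnak KO and WT ureter, and all 12 were under 1 TPM in both ureters. The summed level of 10 urothelium markers was 116 to 135 TPM in kidney and 10400 and 10300 TPM in the Ahnak KO and WT ureter. Smooth muscle markers summed to 564 to 689 TPM in kidney and to 4680 and 6240 TPM in the same ureters. In bulk tissue, fewer cells of a type and less RNA per cell cannot be told apart.

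Ahnak itself was read in every library. It had 20.6 and 22.1 TPM in Ahnak KO kidneys, 27.7 and 24.7 TPM in WT kidneys, 88 TPM in the Ahnak KO ureter and 77.5 TPM in the WT ureter. By counts the ureters ran the other way, with 18895 in the Ahnak KO and 37439 in the WT ureter. With the TMM factors described below these were 635 and 727 CPM, so the direction in ureter depends on the measure. In kidney the log2 fold change, Ahnak KO over WT, was -0.47 (standard error 0.0961), and the test described below did not call it. The deposited values are sums over the whole gene, and reads were not examined by exon. Whether the Ahnak reads came from the disrupted exon or from others is therefore not known, and these values do not check the genotype labels. Ahnak KO below therefore means a library with that label. The library of Ahnak KO kidney replicate 1 stood apart, with 7755 genes listed at 0 against 6415 to 6706 in the other kidney libraries. The Ahnak KO ureter held 25900 TPM of Rn45s, a ribosomal RNA precursor, against 2000 TPM in the WT ureter and 1650 to 2170 TPM in kidney, and its part in the values below was not tested.

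The 10 genes covered a wide range of levels. In kidney the order by mean TPM (± SD, n = 4) was Pkd2 with 58.7 ± 5.86, Trpm7 with 51.9 ± 3.55, Trpv4 with 33.4 ± 0.539, Piezo1 with 24.4 ± 1.14, Pkd1 with 17.7 ± 1.58 and Piezo2 with 14.2 ± 0.798. Pkhd1 with 7.45 ± 1.86, Trpc1 with 7.09 ± 0.575, Trpc6 with 0.93 ± 0.303 and Pkd2l2 with 0.168 ± 0.152 followed. Neighbours in this order did not overlap between libraries, except Pkd2 with Trpm7 and Pkhd1 with Trpc1. In ureter Trpv4 came to the top with a mean of 32.6 TPM (n = 2, 1 library of each genotype), followed by Pkd2 with 31.4, Trpm7 with 24.8, Piezo1 with 21.6, Pkd1 with 12.3, Piezo2 with 7.26, Pkhd1 with 6.69, Trpc1 with 1.15 and Trpc6 with 0.486 TPM. Pkd2l2 was listed at 0 in both ureters. The ranges of Trpv4 and Pkd2, of Trpm7 and Piezo1, and of Piezo2 and Pkhd1 overlapped between the ureter libraries.

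**Figure D1:**
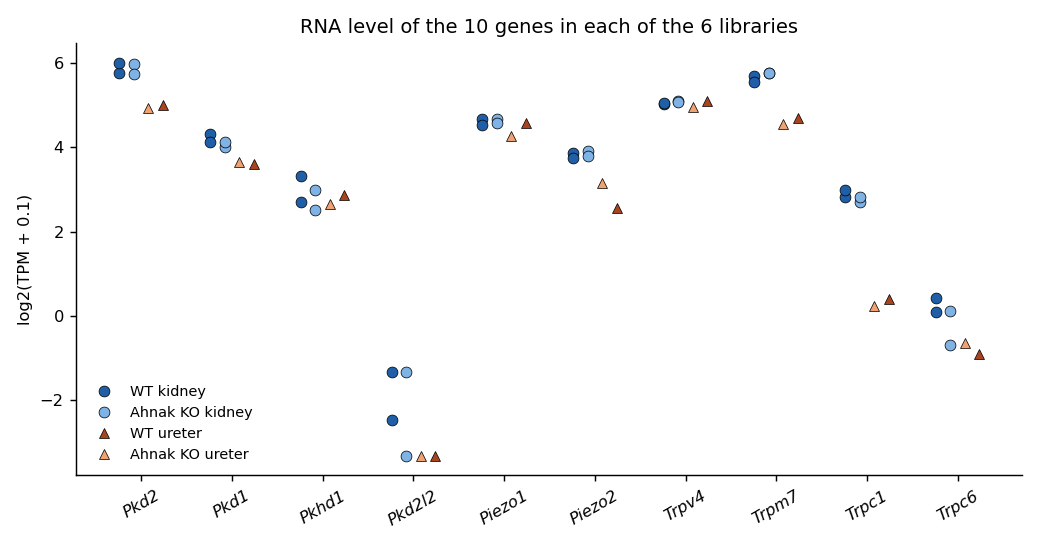
RNA level of the 10 genes in each library, as log2(TPM + 0.1) on the vertical axis. Circles are the 4 kidney libraries and triangles the 2 ureter libraries, each point is 1 library, and the lowest points are Pkd2l2 at 0 TPM. Trpc1 lies between 6.47 and 7.86 TPM in kidney and at 1.08 and 1.22 TPM in ureter, while Trpv4 lies between 30.8 and 34.4 TPM in all 6 libraries.

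Ureter was compared with kidney over all 6 libraries with edgeR's quasi-likelihood test on the counts, with genotype as a second term and p-values adjusted by Benjamini-Hochberg over 16873 genes. A gene was called when its adjusted p was under 0.05. Called lower in ureter were 4 of the 10 genes (Trpc1, Trpm7, Piezo2 and Pkd2), where 23.7% of all genes tested were called lower, and called higher was 1 of the 10 (Trpv4, not on library size alone), where 21.4% of all genes tested were. The median log2 change of the 10 was -0.51, beside -0.076 for all genes tested. Pkd2l2 passed the filter on low counts only through the kidney libraries. By TPM alone, both ureters lay below all kidneys for 5 of the 10 genes (the 4 called lower and Pkd1), where 50.8% of genes did, and above all kidneys for none, where 16.8% of genes did.

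The scaling of the libraries bears on these calls. The test used TMM factors, which assume that most genes are alike between tissues, and on library size alone the median of all genes moved by -0.29 on the log2 scale. Of all genes called, 52.6% were lower in ureter with TMM and 72% on library size alone. Trpc1, Trpm7, Pkd2 and Piezo2 were called lower with both scalings. Each tissue value below is on the TMM scale unless another is named.

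Trpc1 differed most between the tissues among the 9 genes with counts in ureter. It had 6.47 and 7.03 TPM in Ahnak KO kidneys, 7.02 and 7.86 TPM in WT kidneys, 1.08 TPM in the Ahnak KO ureter and 1.22 TPM in the WT ureter. Both ureters lay far below every kidney library. These levels rested on 832 to 1037 counts in each kidney library and on 96 and 164 counts in the Ahnak KO and WT ureter. The log2 fold change, ureter over kidney, was -2.23 (standard error, SE, 0.189, adjusted p = 0.000252 by edgeR), or 0.214 of the kidney level. The fold was alike within each genotype, with -2.28 in the WT libraries and -2.18 in the Ahnak KO libraries. Trpc1 lies at chr9:95705082-95750375 on the minus strand in GRCm38. Its promoter, together with those of Trpm7 and Pkd2, is shown because these are the genes called lower in ureter for which RefSeq promoters were at hand, and that of Pkhd1 for contrast. Each sequence runs from 250 bases before to 50 bases after the gene's start on the gene's own strand, as RefSeq gives it on GRCm38.p6, and 8 of the 10 genes matched. Capitals mark matches, on either strand, to the TATA box (letters TATAAA), the CCAAT box (by its name), the GC box (letters GGGCGG), the E-box (letters CACGTG) and a TEAD motif (letters GGAATG), none of which overlap another here. For Trpc1 the window is chr9:95750299-95750598 on the minus strand, for Trpm7 chr2:126876212-126876511 on the minus strand, for Pkd2 chr5:104459207-104459506 on the plus strand and for Pkhd1 chr1:20618008-20618307 on the minus strand.
Trpc1: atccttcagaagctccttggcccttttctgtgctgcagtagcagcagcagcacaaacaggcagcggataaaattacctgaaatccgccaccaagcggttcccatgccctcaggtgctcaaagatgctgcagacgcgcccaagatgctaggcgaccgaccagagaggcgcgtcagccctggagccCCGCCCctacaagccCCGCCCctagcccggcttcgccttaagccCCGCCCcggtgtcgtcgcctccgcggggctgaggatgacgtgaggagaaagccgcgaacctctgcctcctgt
Trpm7: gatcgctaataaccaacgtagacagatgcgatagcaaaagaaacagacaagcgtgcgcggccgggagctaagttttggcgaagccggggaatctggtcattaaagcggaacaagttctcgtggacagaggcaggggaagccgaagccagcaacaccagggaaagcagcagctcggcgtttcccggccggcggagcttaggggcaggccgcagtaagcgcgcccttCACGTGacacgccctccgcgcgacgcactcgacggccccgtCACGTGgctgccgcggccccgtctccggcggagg
Pkd2: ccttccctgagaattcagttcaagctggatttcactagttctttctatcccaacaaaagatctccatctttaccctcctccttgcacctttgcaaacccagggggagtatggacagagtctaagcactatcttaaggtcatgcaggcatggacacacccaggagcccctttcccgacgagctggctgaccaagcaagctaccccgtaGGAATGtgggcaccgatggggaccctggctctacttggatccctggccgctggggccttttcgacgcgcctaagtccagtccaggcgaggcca
Pkhd1: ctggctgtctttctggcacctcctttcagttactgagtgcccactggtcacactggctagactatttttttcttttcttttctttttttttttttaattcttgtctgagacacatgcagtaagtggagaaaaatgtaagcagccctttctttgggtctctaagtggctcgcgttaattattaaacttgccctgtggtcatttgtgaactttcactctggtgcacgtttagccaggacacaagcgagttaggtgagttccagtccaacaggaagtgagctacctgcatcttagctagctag

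The 4 windows had little in common by these letters. The Trpc1 window held 3 GC boxes, which 35.7% of all 32851 promoters in the table hold at least 1 of, and 22 CpG. The Trpm7 window held 2 E-boxes (held by 7.15% of promoters) and 35 CpG, more than 93% of promoters. The Pkd2 window held 1 TEAD motif (held by 14.7% of promoters) and 9 CpG, near the median of 7 for all promoters. The Pkhd1 window was the poorest in CpG of the 8 matched genes, with 4 CpG and a GC content of 43.3%, and it held no match, so it is printed without capitals. The windows of Piezo1, Trpv4 and Pkd1, not printed, held 34, 30 and 18 CpG, and that of Trpc6 held 17 CpG and no match. A TATA box match was found only in the Piezo1 window among the 8 (13.6% of promoters hold it), and a CCAAT box in none of them (37.4% hold it). A match is a run of letters and not a shown binding site.

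Pkd2, the polycystin channel, had 63.4 and 53.2 TPM in Ahnak KO kidneys, 54.1 and 64.1 TPM in WT kidneys, and 30.5 and 32.3 TPM in the Ahnak KO and WT ureter. Kidney and ureter did not overlap in TPM, and the mean TPM of the ureters was 0.536 of the kidney mean. On the TMM scale the log2 fold change of Pkd2 was -0.51 (SE 0.116, adjusted p = 0.0128 by edgeR), or 0.7 of the kidney level. The call was lost, at about the same fold, without the WT ureter (-0.47, adjusted p = 0.0714) and without the Ahnak KO ureter (-0.56, adjusted p = 0.051), which leave the ureter with 1 library. Its partner Pkd1 had 16 and 17.5 TPM in Ahnak KO kidneys, 19.9 and 17.5 TPM in WT kidneys, and 12.5 and 12.1 TPM in the same ureters. The ureters were again below all kidneys in TPM, but the log2 fold change of -0.14 (SE 0.126, adjusted p = 0.388) did not pass. Pkd1 was called lower on library size alone (log2 fold change -0.44, adjusted p = 0.0204), so its call rests on the scaling. Pkd1 overlaps Tsc2 on the opposite strand, and whether the counting used the strand of the reads is not given in the sources used here, so its counts are uncertain to that extent.

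Pkhd1, the fibrocystin gene, did not follow Pkd2. It had 7.9 and 5.66 TPM in Ahnak KO kidneys, 6.38 and 9.87 TPM in WT kidneys, and 6.22 and 7.16 TPM in the Ahnak KO and WT ureter, so the tissues overlapped. Its log2 fold change of 0.24 (SE 0.209, adjusted p = 0.396 by edgeR) did not pass, and turned to -0.055 on library size alone. The ureter level rested on 1565 and 2729 counts in libraries in which each of the 12 tubule and podocyte markers was under 1 TPM.

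Pkd2l2, a polycystin-2-like gene best known from testis, was near the floor. The table gives it 0 and 21 counts in the Ahnak KO kidneys, 25 and 6 in the WT kidneys and 0 in both ureters. Over the pooled kidney counts it was at least 6.72-fold lower in ureter, but Ahnak KO kidney replicate 1 was at 0 too and the tissues overlapped. Its adjusted p was 0.149 by edgeR. The study listed this gene among those lowered in Ahnak KO kidney, on these same libraries. Its values are therefore no independent evidence on it. Here its log2 fold change, Ahnak KO over WT kidney, was -0.35 (SE 1.57), and it was not called. Fam13b overlaps it on the opposite strand. Other genes of the family gave little more. Of 6 further polycystin and fibrocystin genes 5 were in the table and 2 had enough counts for the test, and 0 were called, with log2 fold changes of -0.65 for Pkdrej (adjusted p = 0.343) and 2.34 for Pkhd1l1 (adjusted p = 0.529).

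The Piezo genes differed from each other. Piezo2 had 15.1 and 13.9 TPM in Ahnak KO kidneys, 14.6 and 13.3 TPM in WT kidneys, 8.76 TPM in the Ahnak KO ureter and 5.76 TPM in the WT ureter. Both ureters were below all kidneys, and the WT ureter was the lowest library. Its log2 fold change was -0.60 (SE 0.176, adjusted p = 0.0324 by edgeR). The call rests on the WT ureter, since the fold was -0.98 in the WT libraries (adjusted p = 0.00261) and -0.26 in the Ahnak KO libraries (adjusted p = 0.247), and without the WT ureter it was -0.26 (adjusted p = 0.197). Without the Ahnak KO ureter it was -0.97 (adjusted p = 0.00569). The call was lost, at nearly the same fold, without WT kidney replicate 1 (-0.53, adjusted p = 0.0629) or replicate 2 (-0.58, adjusted p = 0.0801). Kidney and ureter columns share codes of unstated meaning, and with that code as a block Piezo2 had -0.56 and was not called (adjusted p = 0.102).

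Piezo1 had 25.3 and 24 TPM in Ahnak KO kidneys, 25.3 and 22.9 TPM in WT kidneys, and 19.3 and 24 TPM in the Ahnak KO and WT ureter. The WT ureter lay inside the kidney range and the Ahnak KO ureter below it. The log2 fold change of 0.20 (SE 0.095, adjusted p = 0.13 by edgeR) did not pass, and turned to -0.085 on library size alone. Piezo1 overlaps Ctu2 and Gm20388 on the opposite strand, which leaves its counts uncertain as for Pkd1. Neural and Schwann markers, the cells in which Piezo2 is best known, moved the other way from Piezo2: the sum of 8 such markers was 45.7 to 66.2 TPM in kidney and 456 and 500 TPM in the Ahnak KO and WT ureter. Of these, the autonomic neuron marker Th was under 1 TPM in all 6 libraries. The part of these cells in the Piezo2 level was not tested.

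Trpm7, the channel-kinase, had 54.8 and 54.2 TPM in Ahnak KO kidneys, 51.6 and 46.9 TPM in WT kidneys, and 23.6 and 26 TPM in the Ahnak KO and WT ureter. The tissues were well apart. Its log2 fold change was -0.68 (SE 0.0942, adjusted p = 0.00191 by edgeR), and it was called within the WT libraries (-0.62, adjusted p = 0.0165) and within the Ahnak KO libraries (-0.74, adjusted p = 0.0161).

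Trpv4, a stretch- and osmolarity-gated channel, had 34 and 33.6 TPM in Ahnak KO kidneys, 32.7 and 33.1 TPM in WT kidneys, and 30.8 and 34.4 TPM in the Ahnak KO and WT ureter. These levels were the most even of the 10 genes, and the ureters lay on either side of the kidneys. Trpv4 was called higher in ureter relative to other genes under TMM (log2 fold change 0.35, SE 0.0899, adjusted p = 0.0208 by edgeR), and not on library size alone (0.061, adjusted p = 0.662) or by limma on log2(FPKM + 1) (0.048, adjusted p = 0.714), where FPKM is the authors' length- and depth-corrected value. The call was also lost when any library other than Ahnak KO kidney replicate 1 was left out (adjusted p from 0.0506 to 0.109), while the fold stayed between 0.33 and 0.37. Trpv4 is known from urothelium, whose summed markers were higher in these ureters, and from tubules, whose markers were near 0 there, and the part of either in its level was not tested.

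Trpc6, the podocyte and smooth muscle channel, was low throughout, with 0.521 and 0.979 TPM in Ahnak KO kidneys, 1.25 and 0.966 TPM in WT kidneys, and 0.536 and 0.436 TPM in the Ahnak KO and WT ureter. The libraries held 34 to 135 counts each, and Ahnak KO kidney replicate 1 was as low as the ureters. The log2 fold change of -0.51 (SE 0.572, adjusted p = 0.502 by edgeR) was smaller than its error. A difference of this size could not be detected with this error. The podocyte marker Nphs1 was under 1 TPM in both ureters, whereas smooth muscle markers were higher there.

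**Figure D2:**
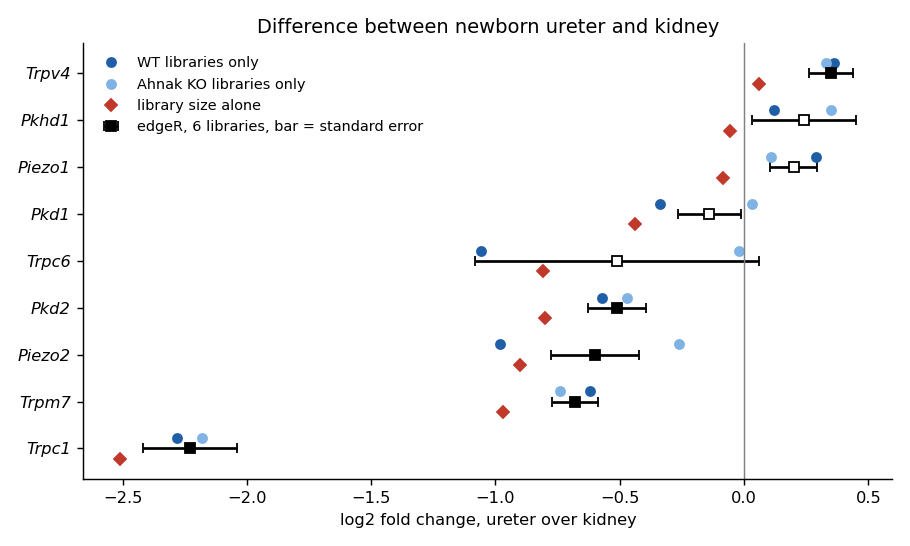
Log2 fold change, ureter over kidney, of the 9 genes with counts in ureter. Black squares with bars are edgeR estimates with standard errors over 6 libraries (filled when called, open when not), circles are the fits within WT or Ahnak KO libraries, and red diamonds are scaled by library size alone. Trpc1 lies lowest, at -2.23, Piezo2 splits by genotype (-0.98 and -0.26), and the Trpv4 value of 0.35 falls to 0.061 on library size alone, where Pkhd1 and Piezo1 turn below 0.

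Ratios of 2 genes within a library do not depend on the scaling of the library. The ratio of Trpm7 to Trpv4 was 1.55 ± 0.0923 (SD, n = 4) in kidney, and 0.767 and 0.755 in the Ahnak KO and WT ureter, so Trpm7 RNA was above Trpv4 RNA per length in every kidney library and below it in both ureters. Pkd1 to Pkd2 was 0.306 ± 0.0522 in kidney, and 0.408 and 0.373 in the same ureters. Pkhd1 to Pkd2 was 0.126 ± 0.0203 in kidney, and 0.204 and 0.221 there. Piezo1 to Piezo2 was the steadiest ratio in kidney, with 1.72 ± 0.026, and was 2.2 in the Ahnak KO ureter and 4.16 in the WT ureter. Trpc1 to Trpc6 was 8.33 ± 2.91 in kidney, and 2.01 and 2.79 in ureter, with Trpc6 read from few counts. All 5 ratios kept the tissues apart. A two-sided exact permutation test of 2 against 4 libraries gave 0.133 for each, the smallest p it can give. After adjustment over the 5 it was 0.133 as well. Each pair holds a gene called lower in ureter, and the pairs were chosen after seeing the data. Their separation is therefore no further evidence, and the share of all gene pairs kept apart was not counted.

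**Figure D3:**
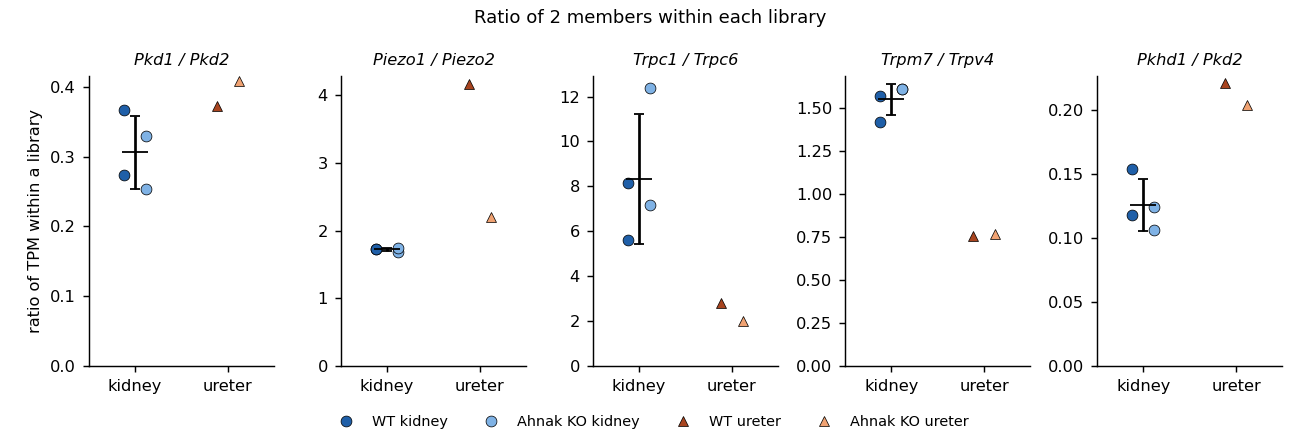
Ratio of the TPM of 2 genes within each library (vertical axes, from 0), for 5 pairs. Circles are kidney and triangles ureter libraries, and the black mark with its bar is the kidney mean and SD (n = 4). Trpm7 over Trpv4 is 1.55 in kidney and 0.767 and 0.755 in ureter, and Piezo1 over Piezo2 is 4.16 in the WT ureter and 2.2 in the Ahnak KO ureter.

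Ahnak KO kidneys were compared with WT kidneys with the same test over 16481 genes in the 4 kidney libraries. It called 0 of the 10 genes, where 0.0121% of all genes tested (2 genes, both lower) were called in either direction. Each of the 10 had an adjusted p of 1 and none had an unadjusted p under 0.05, the lowest being 0.13 for Trpm7. DESeq2's Wald test called 0 of the 10 as well, and 21 genes lower and 25 higher among all genes. The log2 fold changes of the 8 genes other than Trpc6 and Pkd2l2 lay between -0.24 for Pkhd1 (SE 0.247) and 0.18 for Trpm7 (SE 0.101). The low genes had wide errors, with -0.55 for Trpc6 (SE 0.523) and -0.35 for Pkd2l2 (SE 1.57), for which a 2-fold difference could not be seen.

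Some of the 10 did not overlap between the genotypes in kidney TPM. Trpm7 and Trpv4 were higher in both Ahnak KO kidneys than in both WT kidneys, 2 of the 10 where 9.14% of genes did so, and the gaps were small (54.2 against 51.6 TPM for Trpm7 and 33.6 against 33.1 TPM for Trpv4). Pkd1 was lower in both Ahnak KO kidneys, 1 of the 10 where 17.2% of genes were, with both middle libraries at 17.5 TPM after rounding. The polycystin channel Pkd2 showed 0.011 (SE 0.127), and Piezo1 and Piezo2 showed 0.065 (SE 0.107) and 0.083 (SE 0.115). Without Ahnak KO kidney replicate 1, which stood apart, 0 of the 10 were called and the values ran from -0.46 for Pkhd1 to 0.64 for Pkd2l2.

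In ureter each genotype has 1 library, so the genotypes were compared by their log2 ratio of CPM + 0.5 with no replicate check and no test. None of the 9 genes with at least 10 counts passed a 2-fold ratio, where 10.2% of 16117 genes did. Most of these ratios moved with the scaling by more than their counting intervals. Piezo2 came closest, with 1827 counts in the Ahnak KO ureter and 1821 in the deeper WT ureter, a log2 ratio of 0.79 (95% counting interval 0.70 to 0.89), and 0.57 to 0.80 over the other scalings and pseudocounts. Pkd1 had 0.24 (0.18 to 0.30) with TMM factors and 0.043 on library size alone, and Piezo1 had -0.12 (-0.19 to -0.06) and -0.32. Pkd2 had 0.11 (0.045 to 0.18) with TMM factors and turned to -0.088 on library size alone. Trpv4, Trpm7, Trpc1 and Pkhd1 had ratios from -0.0093 to 0.054 with TMM factors, and -0.17, -0.14, -0.15 and -0.21 on library size alone. For these genes other than Piezo2 the direction or the size therefore rests on the scaling. Trpc6 had 34 and 42 counts and a ratio of 0.31 (-0.21 to 1.18).

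Whether the genotype difference in ureter differs from that in kidney was tested as an interaction over all 6 libraries, in which a lone ureter library is assumed to vary like a kidney library. It called 0 of the 10 genes, where 0.108% of 17557 genes were called. Piezo2 had the smallest p of the 10, with a difference of 0.71 (SE 0.202, adjusted p = 0.268 by edgeR), and the adjusted p ran from 0.0975 to 0.567 over the alternatives. The other genes had adjusted p-values of 0.574 or more. Other values moved beside Piezo2 between these ureters, Rn45s among them. Of 7 RNA quality and stress genes, 6 were past 2-fold lower in the Ahnak KO ureter and Rn45s was higher, for instance 56.6 against 301 TPM for Fos and 26.4 against 108 TPM for Hspa1a. The 10 striated muscle markers summed to 204 TPM in the Ahnak KO ureter and 558 TPM in the WT ureter (19.8 to 20.9 in kidney), and the 7 fibroblast markers to 9490 and 7470 TPM (849 to 1150 in kidney). Their part in the Piezo2 value was not tested.

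**Figure D4:**
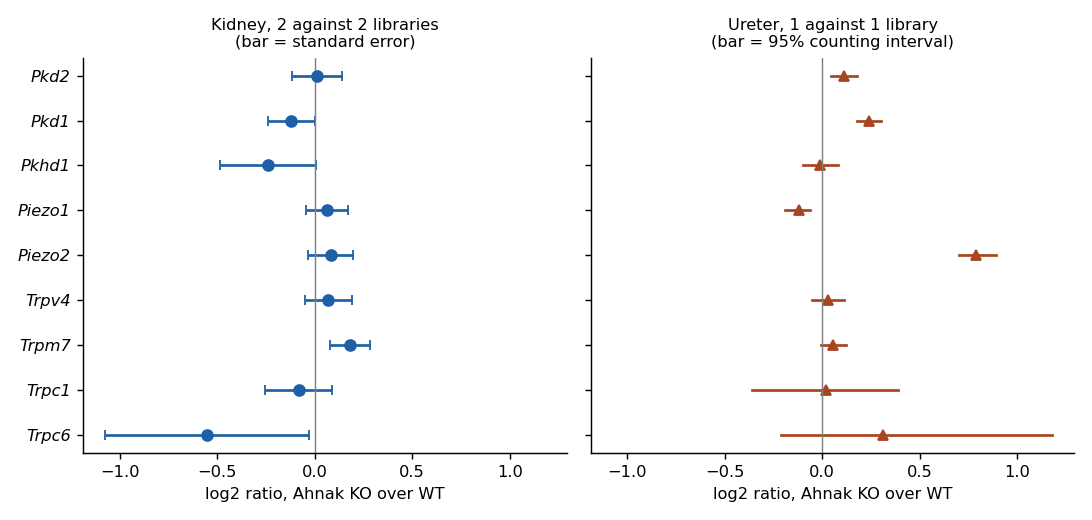
Log2 ratio, Ahnak KO over WT, in kidney (left, edgeR, bar = standard error, 2 against 2 libraries) and in ureter (right, CPM + 0.5, bar = 95% counting interval, 1 against 1 library) for the 9 genes with counts in ureter. In kidney no gene was called, and in ureter Piezo2 lies at 0.79, with the other genes between -0.12 and 0.31 with TMM factors. On library size alone Pkd2, Trpv4, Trpm7 and Trpc1 turn below 0 in ureter, and the ureter bars hold no variation between mice.

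Other genes of the same pathways were read from lists. Among 16 further TRP channels with enough counts, 6 were called lower and 3 higher in ureter, with a median log2 change of -1.01, and 6 lower and 2 higher with a median of -1.29 on library size alone. Over all genes, 23.7% were called lower and 21.4% higher, which is the background for each of the lists here, and on library size alone 6108 of the 16873 genes were called lower and 2371 higher. The epithelial calcium channel Trpv5 (5.7 to 12.8 TPM in kidney) and the lysosomal channel Mcoln3 (22.7 to 29.6 TPM) were listed at 0 in both ureters. Both are among the 6 called lower and entered the test only through the kidney libraries. Trpm3 had -3.12 (adjusted p = 0.00549 by edgeR). Trpv2, a channel of stretched muscle and of immune cells, was higher in ureter with 2.98 (adjusted p = 0.00104), at 6.77 and 15.6 TPM in the Ahnak KO and WT ureter and 1.18 to 2.37 TPM in kidney. Trpm5 had 1.01 (adjusted p = 0.0126) and Trpm4 0.51 (adjusted p = 0.0247), the latter not called on library size alone (adjusted p = 0.259).

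Among 14 other mechanosensitive channels and Piezo partners, 3 were lower and 7 higher in ureter with a median of 0.26, and 4 lower and 2 higher with a median of -0.031 on library size alone. Kcnk10, a stretch-gated potassium channel, was listed at 0 in both ureters and was low in kidney too, at 0.171 to 0.464 TPM. It entered the test only through the kidney libraries. Asic2 had -6.10 (adjusted p = 0.000998 by edgeR) and Tmem150c had -2.82 (adjusted p = 6.25e-05). Higher with both scalings were the acid-sensing channel Asic1 with 2.24 (adjusted p = 0.00627) and the osmosensitive channel Tmem63b with 1.02 (adjusted p = 0.000793). Mdfi, whose family member Mdfic binds Piezo channels, had 0.75 (adjusted p = 0.0171) and was not called on library size alone (adjusted p = 0.102).

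Among 19 genes of polycystin maturation and cystic disease, 9 were lower and 1 higher in ureter with a median of -0.41, and 12 lower and 0 higher with a median of -0.70 on library size alone. Umod, the uromodulin gene of the thick ascending limb, had 82.9 to 116 TPM in kidney and was listed at 0 in both ureters. It is among the 9 called lower and entered the test only through the kidney libraries. Cys1, which encodes the ciliary protein cystin, had -3.21 (adjusted p = 0.000175). Lrp5, a Wnt co-receptor, had 0.41 (adjusted p = 0.0326) and was not called on library size alone (adjusted p = 0.451). Of 26 primary cilium genes, 8 were lower and 0 higher, with a median of -0.26, and 15 lower and 0 higher with a median of -0.55 on library size alone. They included the nephronophthisis gene Nphp4 with -1.86 (adjusted p = 0.0252) and the transport gene Ift122 with -0.91 (adjusted p = 0.0233). Both were lower in the Ahnak KO ureter than in the WT ureter, for instance 0.317 against 1.61 TPM for Nphp4, and 4 of the 26 cilium genes were past 2-fold lower there, where 5.75% of all genes were, and none higher, with no replicate. The median log2 ratio of the 26 was -0.42 in ureter, beside -0.016 for all genes. The high Rn45s and the lower stress genes of the Ahnak KO ureter library, which also listed 8530 genes at 0 against 8291 in the WT ureter, moved with these values, and their part was not tested.

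Of 10 genes of YAP and TAZ, the co-activators that respond to stretch, 2 were lower in ureter and 1 higher, with a median of -0.085, and 3 lower and 1 higher with a median of -0.38 on library size alone. Amotl2 had -0.75 (adjusted p = 0.00554) and Lats2 -0.51 (adjusted p = 0.0143), and Tead1, a DNA-binding partner of YAP, had 0.75 (adjusted p = 0.00151). Between the kidney genotypes, 0 genes of any of these lists were called.

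The genes with the most similar profiles were sought among 14146 genes with at least 10 counts in every library, as the smallest distance between log2(TPM + 0.1) profiles centred over the 6 libraries. Trpm7 was closest to Mapk8 (distance 0.0502), which had 22.8 to 26.9 TPM in kidney and 11.3 and 12.4 TPM in the Ahnak KO and WT ureter. Trpc1 had no neighbour so near, with Fmn1 at 0.255 and Pcbd1 at 0.289. Piezo2 was closest to Msantd3 (0.146) and Usp14 (0.161), which were likewise lowest in the WT ureter, at 16.1 and 21.2 TPM. Pkd2 was closest to Kdm7a (0.109) and Sec23b (0.112), Pkd1 to Map2k5 (0.044) and Mrpl3 (0.0471), and Pkhd1 to Bbof1 (0.174) and Fam111a (0.19). Piezo1 was closest to Skap2 (0.0619) and Phactr2 (0.0664), Trpv4 to Foxo1 (0.0494) and Morf4l1 (0.0534), Trpc6 to Ube2cbp (0.169), among the genes reported here, and Trpm7 after Mapk8 to Cnot6 (0.134). With 6 libraries, flat profiles such as that of Trpv4 find near neighbours easily.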

How the data were processed

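Bulk RNA-seq of PN1 mouse kidney (2 Ahnak KO, 2 WT) and ureter (1 Ahnak KO, 1 WT) was used. The authors deposited a table of estimated counts, given as whole numbers and not normalized, with FPKM and TPM, which the authors normalized for length and depth. The methods name a stranded mRNA kit, Cutadapt, STAR, Cufflinks and GRCm39, while the submitters' processing notes name FastQC 0.11.7, Trimmomatic 0.38, HISAT2 2.1.0, StringTie 1.3.4b, edgeR, R 3.6.1 and mm10, so the estimated counts cannot be tied to a counter. A 0 in the table need not mean that no read was found. Gene numbers matched RefSeq for 24462 genes, and 27 symbols changed to dates were restored.

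In R 4.3.3, edgeR 4.0.16 was run on the counts with TMM factors, the filter filterByExpr, the quasi-likelihood test and Benjamini-Hochberg adjustment. The test had been planned on read counts and was run on the estimated counts. Standard errors (SE) were approximated from the F statistic, as the size of the log2 change over the root of F. Ureter over kidney had genotype as a second term, kidney genotype no other term, and the interaction all 6 libraries. Ureter genotypes were compared by log2 ratios. A gene with no count in a group was given only a limit (3 counts over the group). Alternatives were DESeq2 1.42.0 (Wald test, or its size factors), a filter of 10 counts in each library, no filter, limma 3.58.1 on log2(FPKM + 1) or log2(FPKM + 0.1), single genotypes, no genotype term, a replicate block and leaving out each library. For ureter ratios they were library size alone, CPM + 0.1, FPKM + 0.1 and at least 50 counts. Library size alone for the tissue comparison, a block on the code shared by kidney and ureter column names, a crossed block, TPM + 0.1, the within-library ratios and the promoter motifs were chosen after seeing the data. Scripts were tested on simulated data. Other steps ran in Python 3.11.15 (numpy 2.4.6; pandas 2.3.3; scipy 1.17.1).

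Named were the 10 genes, Ahnak, up to 3 called genes in each direction from each list by absolute log2 fold change, and the 2 nearest profiles per gene. Some genes that this rule names are not reported here. For cell type markers only sums and defining markers were named. The genes and lists were chosen with earlier results of these data known. Further lists covered endothelial (587 to 677 TPM summed in kidney, 348 and 421 in the Ahnak KO and WT ureter), red blood cell (1990 to 2710, 1470 and 3630), adrenal cortex (1.84 to 2.49, 3.89 and 2.2) and RNA quality and stress genes (1810 to 2720, 26200 and 3080, of which Rn45s was 25900 and 2000 in the Ahnak KO and WT ureter).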

Additional observations from a re-analysis of the deposited data

How the results depend on the processing

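Over 17 alternatives of the tissue comparison, Trpc1 (log2 fold change -2.51 to -1.49) and Trpm7 (-0.97 to -0.62) were called lower in each. Pkd2 was called in 14, Piezo2 in 11 and Trpv4 in 6. With 1 library left out in turn, 2 to 4 of the 10 genes were called lower and 0 to 1 higher, and 2710 to 3573 of all genes lower and 2448 to 3320 higher. Without the WT ureter, as in the Ahnak KO libraries alone, 2 of the 10 were called lower. Called higher were 0 of the 10 with limma at either pseudocount, in WT or Ahnak KO libraries alone, with the shared code as a block and on library size alone. Among all genes, limma on log2(FPKM + 1) called 6256 lower, library size alone 6108 lower and 2371 higher, limma on log2(FPKM + 0.1) 2351 higher, and the shared code block 2301 lower. The cause of these shifts was not tested.

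Signs turned for genes that had not passed. With limma at pseudocounts 1 and 0.1 and on library size alone, the tissue value was -0.088, -0.096 and -0.085 for Piezo1 and -0.035, -0.039 and -0.055 for Pkhd1. Pkd1 had 0.032 in Ahnak KO libraries alone, and -0.33 to 0.031 with 1 library left out. Pkd2 between kidney genotypes had -0.0056 and -0.0057 with limma. With 1 kidney library left out, the genotype values ran from -0.0037 to 0.13 for Piezo1, -0.17 to 0.002 for Trpc1, -0.11 to 0.14 for Pkd2, -0.98 to 0.84 for Pkd2l2 and -0.52 to 0.11 for Pkhd1. In the interaction, limma gave -0.041 for Trpc1 (pseudocount 0.1) and -0.09 and -0.095 for Pkd2, and leaving out libraries gave -0.026 to 0.22 for Pkd2 and -0.12 to 0.51 for Pkhd1.

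Between kidney genotypes, the counts over all genes, 2 lower and 0 higher, became 21 and 25 with DESeq2, 1 lower with at least 10 counts in every library, 0 lower with limma at either pseudocount, and 2 to 63 lower and 1 to 24 higher with 1 library left out. For the interaction, 10 lower and 9 higher became 287 and 204 with DESeq2, 6 lower with at least 10 counts, 0 and 0 with limma, and 2 to 125 lower and 2 to 145 higher with 1 library left out. Of the 10 genes, 0 were called in these alternatives. In ureter, genes past 2-fold, 926 lower and 725 higher, became 1629 and 1142 with CPM + 0.1, 1840 lower with FPKM + 0.1 and 2001 lower with TPM + 0.1. On library size alone or by FPKM or TPM, the ureter ratios of Pkd2, Trpv4, Trpm7 and Trpc1 turned below 0.

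The kidney labels carry replicate numbers. The deviations of same-numbered libraries correlated at -0.193 over 16481 genes, so the numbers are not shown to pair mice, and the replicate block called 0 genes lower and 0 higher. A crossed replicate block called 1 lower and 0 higher. Pkd2l2 and Trpc6 had few counts and wide errors, and 1 ureter library per genotype leaves differences between mice unmeasured.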
